A study of Sus scrofa domesticus with 2 samples.

Results

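Extracellular proteases and their inhibitors were described in cultured pig endothelial cells (ECs) through 7 genes: TIMP1, TIMP2, TIMP3, MMP2, MMP14, MMP23B and ADAMTS1. They were chosen by name, and all 7 were found among the 22804 genes counted. The cells of 1 group were freed with collagenases from a perfused lung lobe of a domestic pig (Sus scrofa domesticus), and those of the other from a stretch of aorta near the lung. Both were cultured in the same medium, DMEM with fetal calf serum, with no treatment named in the labels, which give neither the age nor the number of pigs behind the cultures. Each group had 1 scRNA-seq library, so no test was made between organs or cell classes. The values are counts of unique molecular identifiers (UMIs), each standing for 1 captured transcript end, and were not scaled by gene length. Levels are in CPM, the UMIs of all cells of a class scaled to 1000000 UMIs of that class, with exact 95% Poisson intervals in parentheses. Folds between classes carry exact conditional 95% intervals, and all intervals cover counting error only.

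Matrix metalloproteinases (MMPs) are zinc enzymes that cut collagens and other proteins outside the cell, and tissue inhibitors of metalloproteinases (TIMPs) block their active site. MMP2 digests basement membrane collagen and leaves the cell in an inactive form, which the membrane-bound MMP14 activates while TIMP2 holds the pair together. TIMP3 is bound to the matrix and also inhibits ADAM and ADAMTS proteases, whereas TIMP1 and TIMP2 are soluble. MMP23B is a short MMP of the cell membrane, and ADAMTS1 is a secreted protease that cuts proteoglycans such as versican.

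The lung library held 5946 cells with a median of 9326 UMIs, and the aorta library 1185 cells with a median of 45594 UMIs. The libraries shared 5 cell barcodes. Within the limits of the study's methods, 5683 lung cells and 246 aorta cells were left. Without the upper limit on detected genes the aorta gave 955 cells, which are called deep aorta cells here. The study's methods give that limit as a filter for doublets. Of the 955 cells, 709 were above it. The study reports more aorta cells after filtering than were left here within the limits. Which upper limit it applied to the aorta is therefore unclear, and the smaller aorta set here is not the study's set. The 955 also hold the 246 cells within the limits, so these aorta sets are not independent. Not all of them are deep, as the EndMT-like ones had a median of 3829 UMIs. In the lung, 4932 cells were endothelial-like, 334 were collagen-high (COL1A1 and COL1A2 both raised), 90 were immune-like and 327 stayed unnamed. In the aorta, 158 cells within the limits were endothelial-like, 22 collagen-high and 66 EndMT-like, named for raised contractile genes used as markers of endothelial-to-mesenchymal transition. Among deep aorta cells, 633 were endothelial-like, 142 collagen-high and 64 EndMT-like, and 116 stayed unnamed. In the lung, the summed level of the 11 endothelial markers was 2686 CPM in the endothelial-like class and 326 CPM in the collagen-high class. The 8 fibroblast markers summed to 107 and 11678 CPM. Of the latter, COL1A1 and COL1A2, by which the class was named, gave 5318 and 5843 CPM. The 6 pericyte markers summed to 3.18 and 324 CPM. In collagen-high lung cells 3 of the 8 fibroblast and 2 of the 6 pericyte markers reached 20 CPM. All 5 contractile (EndMT) markers did, with a sum of 5192 CPM against 1159 CPM in endothelial-like lung cells.

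The genes were placed on the Sscrofa11.1 build with the RefSeq annotation. TIMP1 (ENSSSCG00000012277) lies at chrX:42103251-42106289 on the plus strand, within SYN1 on the minus strand. TIMP3 (ENSSSCG00000031866) lies at chr5:12185816-12242599 on the minus strand, within SYN3 on the plus strand. The surrounding genes had few UMIs in endothelial-like lung cells, with SYN1 at 1.33 CPM (1.03 to 1.69) and SYN3 at 0.0198 CPM (0.000503 to 0.111). TIMP2 (ENSSSCG00000017164) lies at chr12:3254794-3300835 on the plus strand and holds the smaller gene CEP295NL on the same strand. MMP2 (ENSSSCG00000002829) at chr6:30059247-30087031 on the minus strand and MMP23B (ENSSSCG00000003351) at chr6:63801668-63804275 on the plus strand share a chromosome. MMP14 (ENSSSCG00000002039) lies at chr7:76174502-76185931 and ADAMTS1 (ENSSSCG00000012026) at chr13:190277175-190285957, both on the minus strand.

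The 250 bases before the RefSeq start are shown for 4 genes, read in the direction of the gene. TIMP3, MMP2 and MMP23B are shown because they were highest in the same endothelial-like clusters, and TIMP1 because it was the gene with most UMIs of the 7 in collagen-high cells. Capitals mark GGGCGG (the GC box) or CCAAT on either strand. The windows are chr5:12242600-12242849 (minus strand), chr6:30087032-30087281 (minus strand), chr6:63801418-63801667 (plus strand) and chrX:42103001-42103250 (plus strand).
TIMP3: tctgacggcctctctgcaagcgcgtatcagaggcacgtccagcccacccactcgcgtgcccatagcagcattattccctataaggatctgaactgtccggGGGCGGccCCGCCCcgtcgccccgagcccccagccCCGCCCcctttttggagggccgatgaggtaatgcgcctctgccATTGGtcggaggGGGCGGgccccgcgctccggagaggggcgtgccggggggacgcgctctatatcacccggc
MMP2: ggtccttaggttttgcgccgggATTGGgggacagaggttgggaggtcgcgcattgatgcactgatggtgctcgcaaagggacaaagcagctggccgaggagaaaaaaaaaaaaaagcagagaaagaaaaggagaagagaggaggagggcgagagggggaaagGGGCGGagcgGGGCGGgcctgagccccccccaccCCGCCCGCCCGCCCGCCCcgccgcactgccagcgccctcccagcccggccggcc
MMP23B: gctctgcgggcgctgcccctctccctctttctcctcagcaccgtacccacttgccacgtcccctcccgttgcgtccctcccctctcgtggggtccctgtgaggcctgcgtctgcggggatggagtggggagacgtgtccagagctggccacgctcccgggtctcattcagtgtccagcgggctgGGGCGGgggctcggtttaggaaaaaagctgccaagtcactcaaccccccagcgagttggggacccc
TIMP1: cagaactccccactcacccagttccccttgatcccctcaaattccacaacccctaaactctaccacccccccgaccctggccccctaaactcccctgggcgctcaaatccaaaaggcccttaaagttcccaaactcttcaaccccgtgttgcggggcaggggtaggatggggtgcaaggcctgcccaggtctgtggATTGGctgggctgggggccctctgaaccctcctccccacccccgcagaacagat
GGGCGG was found 4 times before TIMP3, 6 times before MMP2, with some matches overlapping, 1 time before MMP23B and 0 times before TIMP1. CCAAT was found before TIMP1, TIMP3 and MMP2, at 54, 72 and 228 bases from the start. Of 19556 such windows before RefSeq genes, 45.9% held GGGCGG and 31.9% held CCAAT. The windows of TIMP3, MMP2 and MMP23B had 25, 19 and 16 CpG pairs, against 5 before TIMP1 and a median of 12 over all windows. Those of TIMP2, ADAMTS1 and MMP14, not shown, had 49, 23 and 9. TGANTCA (AP-1 site), TTTGAA (CHR element) and GGAATG (TEAD site) were also searched on both strands. They were in 5.27%, 12.5% and 10.3% of all windows and in none of the 7.

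The first question was which of the genes were carried by endothelial-like cells and which by the collagen-high cells grown with them. TIMP1, TIMP2 and MMP14 were at least 2-fold higher in collagen-high lung cells, TIMP3 and MMP2 were at least 2-fold lower, and MMP23B was within 2-fold. ADAMTS1 did not reach 20 CPM in either class, the minimum for such a count. Of all 6052 genes at that minimum, 6.68% were higher, 9.78% lower and 16.5% apart either way, against 5 of the 6 genes here. Deep aorta cells gave the same calls for TIMP1, MMP14, TIMP3 and MMP2, but not for TIMP2. These were 2 higher and 2 lower, with 7.92% higher, 12.6% lower and 20.6% either way over 6302 genes. The smaller set of aorta cells within the limits also gave 2 higher and 2 lower, against 14.1%, 16.1% and 30.2% of 6387 genes.

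TIMP1, a soluble inhibitor, was at 1273 CPM (1238 to 1309) in collagen-high and 232 CPM (228 to 236) in endothelial-like lung cells, 5.49-fold higher (5.31 to 5.68). In the deep aorta TIMP1 was at 2096 CPM (2066 to 2126) and 396 CPM (389 to 403), 5.29-fold higher (5.18 to 5.41). Within the limits the aorta classes had 854 CPM (732 to 990.3) and 312 CPM (282 to 344), 2.74-fold higher (2.28 to 3.28). The intervals of the classes did not overlap in either organ.

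TIMP2, the inhibitor that takes part in MMP2 activation, was at 349 CPM (330.1 to 368) in collagen-high and 70.2 CPM (68.0 to 72.6) in endothelial-like lung cells, 4.96-fold higher (4.66 to 5.29). Its levels in the deep aorta were 280.3 CPM (269 to 292) and 155 CPM (151 to 159.6), 1.80-fold higher (1.72 to 1.89). The smaller fold of the aorta went with a higher level in its endothelial-like cells. Collagen-high clusters differed in TIMP2, with 244 CPM (233 to 255) in 124 and 519 CPM (479 to 563) in 18 deep aorta cells. The lung clusters were closer, with 360.4 CPM (339 to 383) in 244 and 315 CPM (281 to 352) in 90 cells.

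TIMP3, the matrix-bound inhibitor, differed in the opposite direction. Endothelial-like lung cells had 65.4 CPM (63.2 to 67.7) and collagen-high ones 8.39 CPM (5.74 to 11.8), 7.80-fold lower (5.51 to 11.4). Endothelial-like deep aorta cells had 117 CPM (113 to 120.1) and collagen-high ones 4.59 CPM (3.28 to 6.25), 25.4-fold lower (18.6 to 35.6). Within the limits TIMP3 was 3.59-fold lower (1.86 to 7.97), and the 9 UMIs of the 22 collagen-high cells were all in 1 cell. PECAM1, an endothelial adhesion molecule, was still at 153 CPM (141 to 166) in collagen-high lung cells. Without the collagen-high lung cells that had a UMI of PECAM1, CDH5 or KDR, 207 cells were left, and TIMP3 in them was 0.0511 times the endothelial-like level, in place of 0.128 times.

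MMP2, the basement membrane protease, was at 82.6 CPM (73.7 to 92.2) in collagen-high and 211 CPM (207 to 215) in endothelial-like lung cells, 2.56-fold lower (2.29 to 2.87). The deep aorta gave 62.2 CPM (57.1 to 67.6) and 262 CPM (256 to 267), 4.21-fold lower (3.86 to 4.60). Within the limits MMP2 was 4.01-fold lower (2.47 to 6.94). In the 207 collagen-high lung cells described above, MMP2 was 0.283 times the endothelial-like level.

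MMP14, the membrane-bound activator of MMP2, was low throughout and higher in collagen-high cells. It was at 20.4 CPM (16.2 to 25.5) and 6.99 CPM (6.28 to 7.76) in the lung, 2.93-fold higher (2.26 to 3.75). The deep aorta levels were 33.5 CPM (29.8 to 37.6) and 11.5 CPM (10.4 to 12.6), 2.93-fold higher (2.51 to 3.41). In the lung MMP14 was close to the minimum of 20 CPM and fell below it when the CPM of single cells were averaged.

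MMP23B was the gene that separated the classes least. It was at 69.7 CPM (61.6 to 78.6) in collagen-high and 69.5 CPM (67.2 to 71.8) in endothelial-like lung cells, a fold of 1.00 (0.883 to 1.14). The deep aorta gave 56.1 CPM (51.2 to 61.3) and 83.7 CPM (80.7 to 86.8), 1.49-fold lower (1.35 to 1.64). ADAMTS1, the proteoglycan-cutting protease, was at 8.65 CPM (5.95 to 12.1) in collagen-high and 3.57 CPM (3.07 to 4.13) in endothelial-like lung cells. In the deep aorta its order was the other way, with 7.69 CPM (5.96 to 9.76) and 18.0 CPM (16.6 to 19.4).

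**Figure D1:**
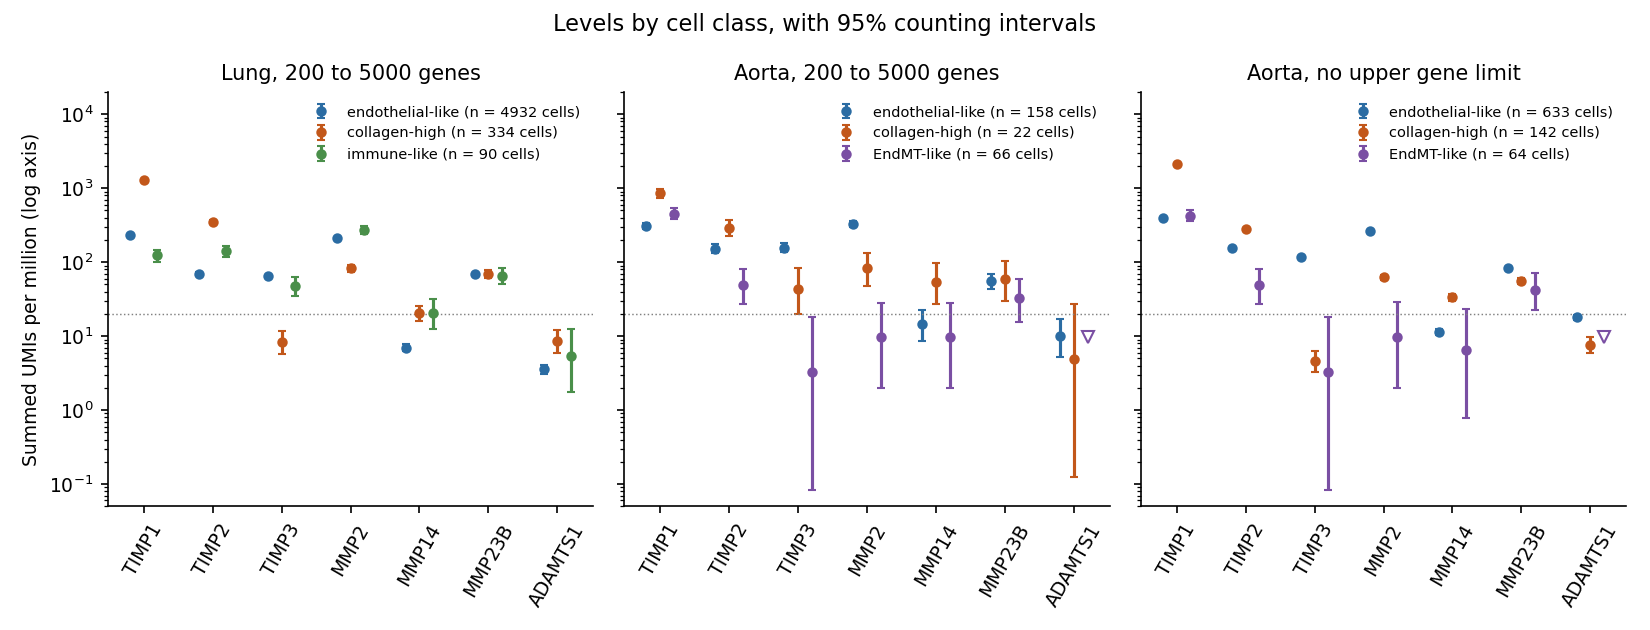
Levels of the 7 genes by cell class, as summed UMIs per 1000000 UMIs on a log axis, in the lung library, the aorta library within the limits on genes and the aorta library with no upper limit. Points are class totals with 95% Poisson intervals, the dotted line is at 20, and open triangles give the limit that a count of 0 allows; TIMP1 lies at 1273 in collagen-high and 232 in endothelial-like lung cells, and TIMP3 at 8.39 and 65.4.

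The ratio of inhibitor to protease transcripts was taken over TIMP1, TIMP2 and TIMP3 against MMP2, MMP14 and MMP23B. Endothelial-like lung cells had 1.28 (1.25 to 1.31) TIMP UMIs per MMP UMI and collagen-high lung cells 9.44 (8.71 to 10.2). The ratios in the deep aorta were 1.87 (1.83 to 1.91) and 15.7 (14.8 to 16.6). TIMP3 gave 17.8% (17.2 to 18.4) of the TIMP UMIs of endothelial-like and 0.514% (0.352 to 0.726) of those of collagen-high lung cells, and 17.4% (17.0 to 17.9) and 0.193% (0.138 to 0.262) in the deep aorta. TIMP1 gave 78.1% (77.1 to 79.1) of the TIMP UMIs of collagen-high cells in the lung and 88.0% (87.6 to 88.5) in the deep aorta. These ratios are of transcripts, and neither protein nor activity was measured.

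Shares of cells with a UMI of a gene were compared at an equal depth of 3000 randomly drawn UMIs per cell, and 13 endothelial-like and 7 collagen-high lung cells were too shallow for it. TIMP1 was seen in 49.0% (47.5 to 50.4) of endothelial-like and 90.2% (86.5 to 93.2) of collagen-high lung cells, and at full depth in 85.4% and 97.6%. The equal-depth shares of TIMP2 were 18.2% (17.1 to 19.3) and 59.3% (53.8 to 64.7), against 46.2% and 91.0% at full depth. TIMP3 was seen in 14.3% (13.3 to 15.3) of endothelial-like and 2.14% (0.865 to 4.36) of collagen-high lung cells, and at full depth in 33.2% and 5.69%. MMP2 was seen in 44.0% (42.6 to 45.4) and 21.4% (17.1 to 26.3), and at full depth in 78.1% and 50.9%. COL1A1, which marks the collagen-high class, was seen at equal depth in 3.84% (3.32 to 4.42) of endothelial-like and 99.7% of collagen-high lung cells, whose median depths were 9578 and 10721.5 UMIs. MMP14 was seen in 2.15% (1.77 to 2.60) of endothelial-like lung cells. No class known to lack these genes was at hand, so the shares that free RNA alone would give TIMP3 and MMP14 were not measured. MMP14, TIMP2 and MMP2 were seen together in 13 of 4919 endothelial-like lung cells, or 0.264% (0.141 to 0.452), and in 1 of 327 collagen-high ones. The endothelial-like share cannot exceed the 2.15% in which MMP14 was seen at this depth. It therefore does not tell how often cells carry these transcripts together.

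**Figure D2:**
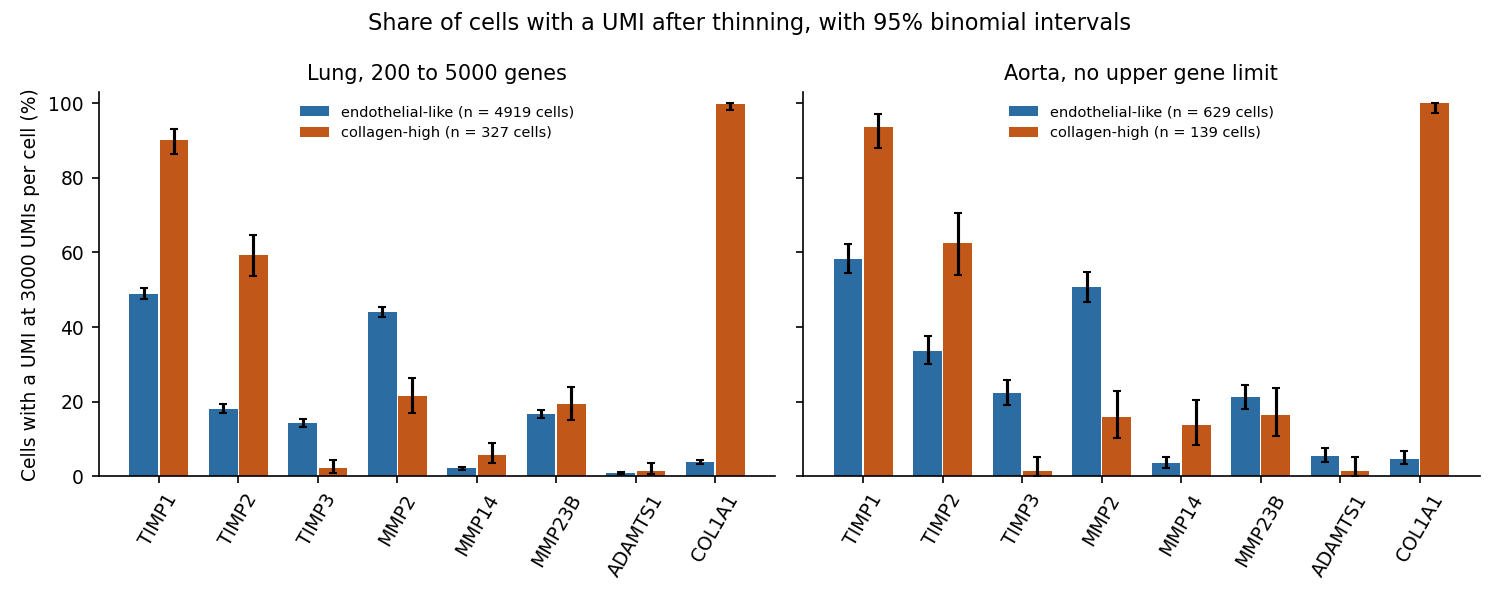
Share of cells (%) with at least 1 UMI of each gene at an equal depth of 3000 UMIs per cell, in endothelial-like and collagen-high cells of the lung and of the aorta with no upper gene limit, with 95% Clopper-Pearson intervals. COL1A1, a marker of the collagen-high class, lies at 3.84% in endothelial-like lung cells, while TIMP3 lies at 14.3% in these and at 2.14% in collagen-high lung cells.

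Other genes of the same system were taken from lists of MMPs, ADAMTS and ADAM proteases, inhibitors, activation and clearance genes and ADAMTS1 substrates. Of 62 listed genes, 58 were in the counts, and 17 reached 20 CPM in collagen-high or endothelial-like lung cells. Of these 17, 9 were at least 2-fold higher in collagen-high cells and 2 lower, against 6.68% higher and 9.78% lower over all genes, with a median log2 fold of 1.71 against -0.00295. Among deep aorta cells 20 reached 20 CPM, of which 11 were higher and 4 lower, against 7.92% and 12.6% over all genes, with a median of 1.58 against 0.03. ADAMTS2, which trims procollagens, was at 27.5 CPM (22.5 to 33.3) in collagen-high and 0.139 CPM (0.0559 to 0.286) in endothelial-like lung cells. ADAM12, a membrane protease, was 148-fold higher (106 to 212) in collagen-high lung cells and 29.3-fold higher (24.0 to 36.1) in the deep aorta. Versican (VCAN), the proteoglycan that ADAMTS1 cuts, was at 355 CPM (337 to 375) against 9.96 CPM (9.11 to 10.9) in the lung and 444 CPM (431 to 459) against 13.1 CPM (12.0 to 14.4) in the deep aorta. MMP19, ADAM9, ADAM19, ADAMTS12, the convertase PCSK6 and the clearance receptor LRP1 were also higher in both organs within the limits, with lung folds from 3.26 for MMP19 to 15.1 for LRP1. The aorta counts within the limits were small, such as 5 and 5 UMIs for ADAMTS12, a fold of 6.40 (1.47 to 27.8), and 6 and 6 for LRP1. In the deep aorta LRP1 was 9.29-fold higher (7.47 to 11.6), while ADAMTS12 did not reach 20 CPM. RECK, a membrane-anchored MMP inhibitor, was the listed gene that was 2-fold lower in collagen-high cells of both organs within the limits. It was 4.15-fold lower (2.68 to 6.83) in the lung and 8.28-fold lower (1.42 to 333) in the aorta, where it had 1 UMI in collagen-high cells. In the deep aorta RECK was 7.30-fold lower (5.66 to 9.59). ADAM15 was also 2-fold lower in collagen-high cells of the lung, at 7.34 against 23.96 CPM, and of the deep aorta, at 5.74 against 22.9 CPM. Within the limits ADAM15 did not reach 20 CPM in either of these aorta classes.

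In endothelial-like lung cells the listed MMPs with most UMIs were MMP19 at 16.1 CPM (15.0 to 17.2), MMP16 at 11.6 CPM and MMP11 at 4.39 CPM. ADAMTS10, ADAMTS4 and ADAMTS7 led their list at 9.90, 8.87 and 4.51 CPM, above ADAMTS1. The sheddases ADAM10 and ADAM17 were at 52.6 and 39.2 CPM, the inhibitors TFPI2 and RECK at 48.0 and 21.8 CPM, and the basement membrane protein NID2 at 72.2 CPM.

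**Figure D3:**
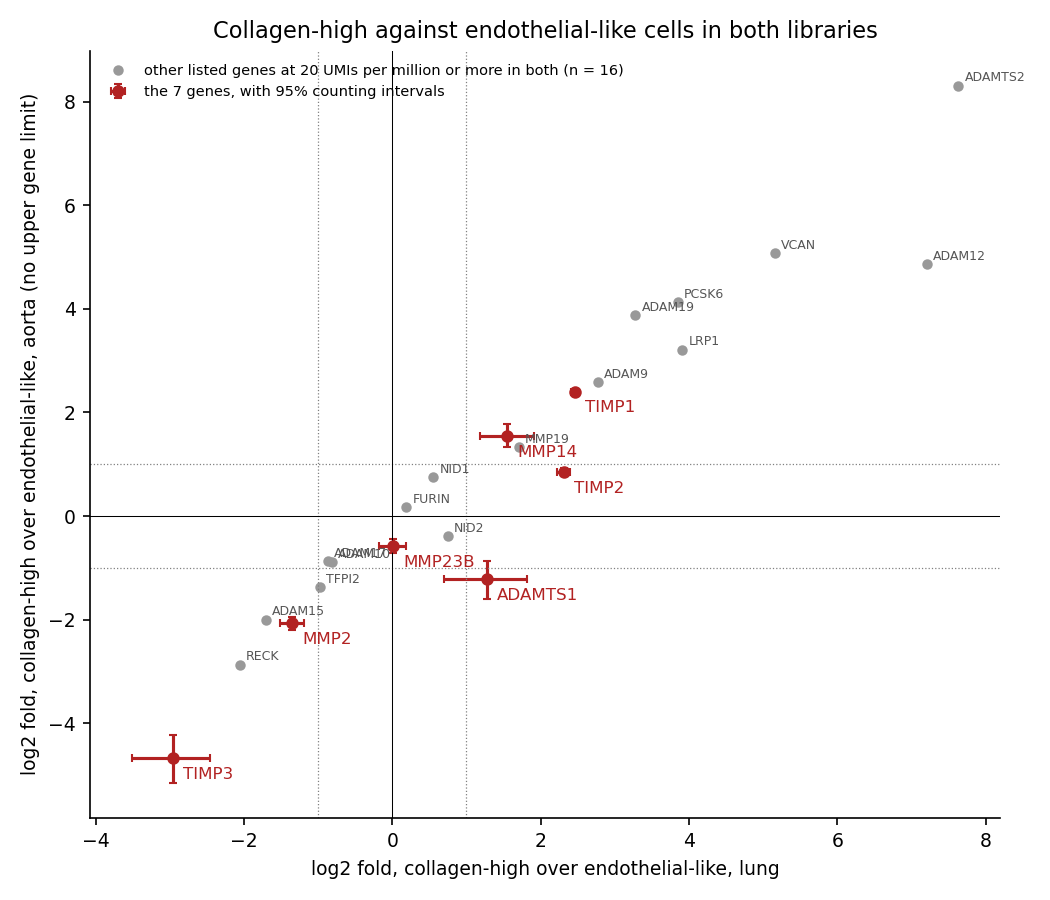
log2 fold of collagen-high over endothelial-like cells in the lung (x axis) and in the aorta with no upper gene limit (y axis), for the 7 genes in red with 95% counting intervals and for 16 other listed genes in grey, with dotted lines at 2-fold. TIMP3 and MMP2 lie at the lower left, TIMP1, TIMP2 and MMP14 at the upper right, and ADAMTS1 is higher in the lung and lower in the aorta.

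Cells were named EndMT-like in the aorta library only, since lung clusters with at least 3 of the 5 EndMT markers raised were collagen-high or, in 40 cells that also held 6 endothelial markers, stayed unnamed. TIMP2, TIMP3 and MMP2 were at least 2-fold lower in them than in endothelial-like aorta cells, TIMP1 and MMP23B were within 2-fold, and MMP14 and ADAMTS1 were below 20 CPM in both. These were 3 lower of 5 at the minimum, while 38.8% of 6128 genes were lower and 53.7% were apart either way. The median log2 fold over all those genes was -0.39. TIMP3 was at 158 CPM (137 to 181) in endothelial-like cells and had 1 UMI, 3.24 CPM (0.0821 to 18.1), in EndMT-like cells. MMP2 was at 332 CPM (302 to 365) against 9.72 CPM (2.01 to 28.4) from 3 UMIs, with a fold of 0.0293 (0.00601 to 0.0861). TIMP2 was at 152 CPM (131 to 174) against 48.6 CPM (27.2 to 80.2), 3.12-fold lower (1.85 to 5.68). TIMP1 reached 451 CPM (379 to 532) among EndMT-like cells against 312 CPM (282 to 344), and 139 of their UMIs were of this gene against 15 of TIMP2. With no upper gene limit TIMP1 was at 427 against 396 CPM, and the interval included no difference, at 1.08 (0.901 to 1.28). Within the limits KDR, TEK, TIE1 and ROBO4, 4 of the 11 endothelial markers, were at 0 in EndMT-like cells. There the 5 EndMT markers summed to 7228 CPM in them against 338 CPM. The EndMT-like cluster also had 4 S phase and 7 G2M phase genes raised over the rest of its library, and their part in these values was not tested.

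Mitochondrial UMIs moved with this difference, at a median of 0.0987% per EndMT-like cell. A cluster of 72 endothelial-like aorta cells was nearly as low, at 0.213%, and had TIMP3 at 32.8 CPM (13.2 to 67.5) and MMP2 at 112 CPM (72.0 to 167). The other 86 endothelial-like aorta cells had 7.13%, with TIMP3 at 182 CPM (158 to 209) and MMP2 at 375 CPM (339.8 to 413). TIMP2 was closer between these clusters, at 131 CPM (87.1 to 189) and 156 CPM (133 to 181). The part of the mitochondrial share in these values was not tested. Without cells under 1% mitochondrial UMIs, 11 EndMT-like and 104 endothelial-like cells remained, and 5 genes were 2-fold apart, 2 higher and 3 lower, while 44.8% of all genes were apart either way in that setting.

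The next question was whether levels differed between resting and cycling endothelial-like cells, which were separated by clusters with raised S phase or G2M phase genes. The 7 genes, the other lists and the markers were left out of the genes used for clustering. The lung had 2224 resting and 2708 cycling cells and the deep aorta 317 and 316, and the aorta within the limits had no cycling endothelial-like cluster. All 7 genes had lower values in cycling cells in both organs, but the ADAMTS1 intervals included no difference. In the lung 0 of 5 genes at 20 CPM were 2-fold apart, while 0.544% of 5697 genes were lower and 4.84% apart either way. In the deep aorta 1 of 5, TIMP3, was lower, against 1.74% lower and 9.44% either way of 6103 genes. With clusters made at resolution 0.8 or 1.5 this count was 0.

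TIMP3 was at 90.4 CPM (86.3 to 94.5) in resting and 47.6 CPM (45.1 to 50.1) in cycling lung cells, 1.90-fold lower (1.77 to 2.04). The deep aorta gave 179 CPM (173 to 186) and 62.5 CPM (59.0 to 66.2), 2.87-fold lower (2.68 to 3.07). In S clusters TIMP3 was 1.55-fold lower (1.43 to 1.69) than in resting cells in the lung and 2.40-fold lower (2.22 to 2.60) in the deep aorta. G2M clusters had it 2.37-fold lower (2.16 to 2.60) in the lung and 3.78-fold lower (3.41 to 4.21) in the deep aorta. With G2M clusters alone, 1 gene in the lung and 2 in the deep aorta (TIMP3 and MMP23B) were 2-fold lower. The shares over all genes were then 0.56% lower and 4.78% either way in the lung and 2.52% and 9.2% in the deep aorta. At equal depth TIMP3 was seen in 402 of 2214 resting and 300 of 2705 cycling lung cells, and in 31.5% (26.4 to 37.0) and 13.3% (9.78 to 17.6) of deep aorta cells.

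MMP23B, the membrane MMP, was at 90.7 CPM (86.7 to 94.9) in resting and 54.3 CPM (51.7 to 57.1) in cycling lung cells, 1.67-fold lower (1.56 to 1.78), and 1.99-fold lower (1.85 to 2.15) in the deep aorta. MMP2 was at 252 CPM (246 to 259) and 182 CPM (177 to 187) in the lung, 1.39-fold lower (1.34 to 1.44), and 1.71-fold lower (1.64 to 1.79) in the deep aorta. TIMP1 and TIMP2 were 1.25-fold and 1.25-fold lower in cycling lung cells, and 1.45-fold and 1.53-fold lower in the deep aorta. MMP14 stayed below 20 CPM in every endothelial-like cluster of both. PECAM1, set beside them, was 1.09-fold lower (1.07 to 1.10) in cycling lung cells.

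Within the resting cells, TIMP3, MMP2 and MMP23B were highest in 1 cluster of each organ, in which the protease inhibitor SLPI and complement factor D (CFD) were raised. In the lung this cluster of 776 cells had TIMP3 at 139 CPM (131 to 147). The other resting lung clusters had 61.9 CPM (57.4 to 66.7) in 1243 cells and 53.6 CPM (43.8 to 64.9) in 205 cells, the latter led by interferon-response genes such as CXCL10 and RSAD2. The S clusters had 62.9 CPM (57.0 to 69.3) and 53.9 CPM (48.7 to 59.6), which overlapped these resting clusters, and the G2M clusters had 30.6 CPM (26.7 to 34.9) and 44.8 CPM (40.4 to 49.6). Among deep aorta cells TIMP3 was at 215 CPM (207 to 223) in the 244 cells of the SLPI and CFD cluster, in which CXCL10 and CCL5 also led. The other 73 resting cells there had 44.5 CPM (37.7 to 52.2), the S cluster 74.6 CPM (69.5 to 80.1) and the G2M cluster 47.4 CPM (42.9 to 52.3).

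MMP23B was highest in the same clusters as TIMP3. It was at 142 CPM (133 to 150.1) in the SLPI and CFD cluster of the lung and 41.2 to 70.7 CPM in the other 6 endothelial-like clusters. In the deep aorta it was at 129.9 CPM (124 to 136) there and 49.3 to 63.8 CPM in the other 3. MMP2 was at 336 CPM (323 to 349) in that lung cluster and 164 to 216 CPM elsewhere, and at 365 CPM (355 to 376) in that aorta cluster and 191 to 232 CPM elsewhere. TIMP1 had its highest level among these lung clusters in the interferon-led one, 322 CPM (298 to 348), against 262 CPM (251 to 274) in the SLPI and CFD cluster. ADAMTS1 passed 20 CPM in 1 endothelial-like cluster, that of SLPI and CFD in the deep aorta, at 20.7 CPM (18.3 to 23.4). When the SLPI and CFD clusters were left out of the resting cells, TIMP3 in cycling cells was 0.784 times the resting level in the lung and 1.40 times in the deep aorta, so its direction turned there. MMP23B was then 0.912 and 1.03 times, and MMP2 0.902 and 0.847 times, the resting level.

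**Figure D4:**
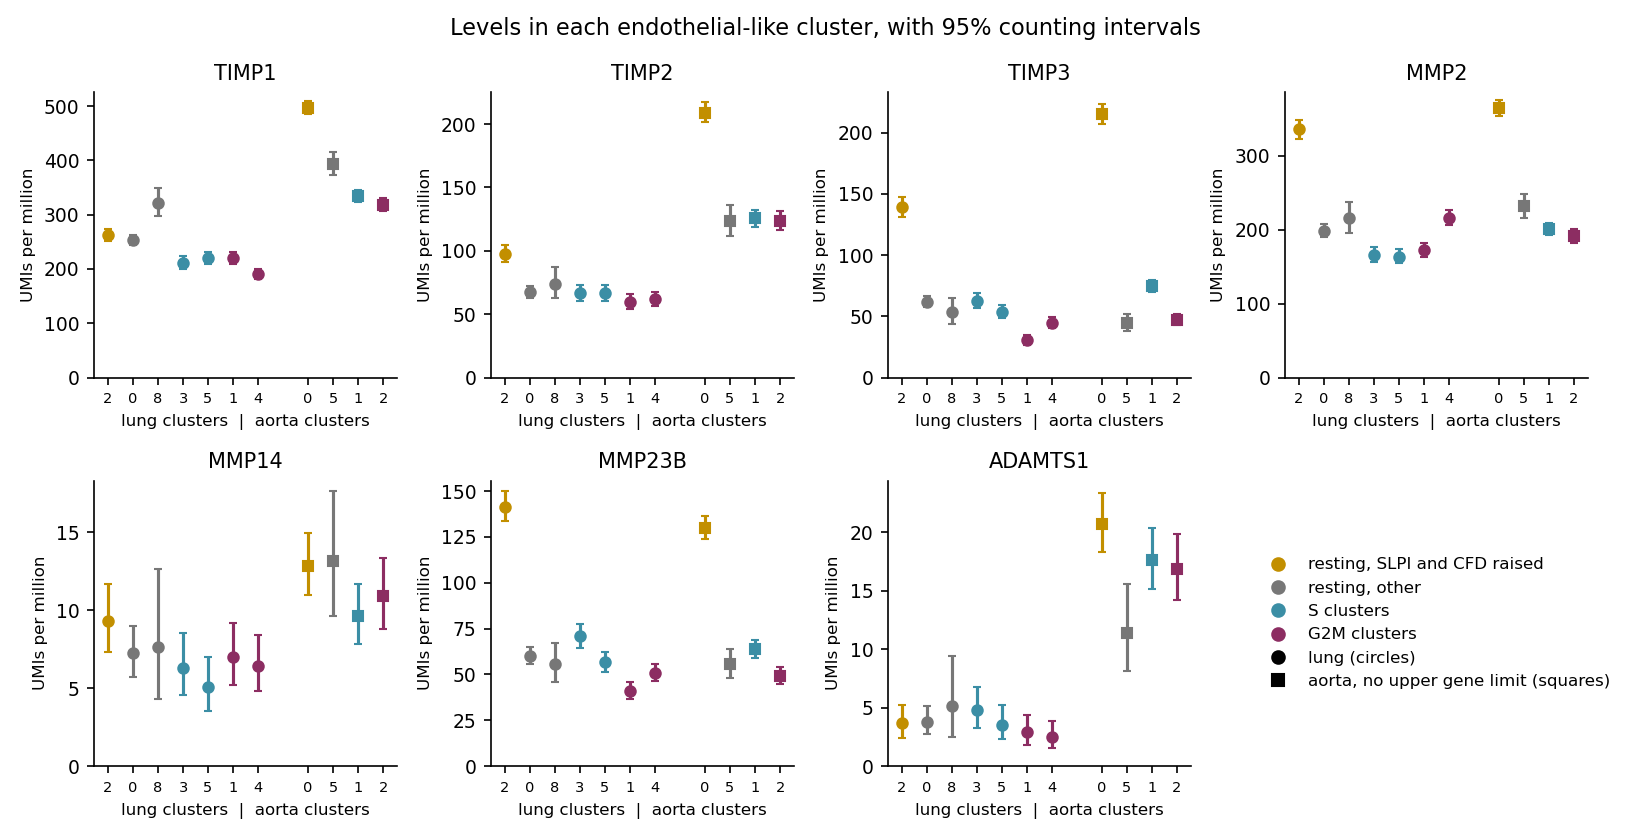
Level of each gene (summed UMIs per 1000000 UMIs, linear axes from 0) in each endothelial-like cluster of the lung and of the aorta with no upper gene limit, with 95% Poisson intervals and colours for the SLPI and CFD cluster, other resting clusters, S clusters and G2M clusters. TIMP3 is at 139 in the SLPI and CFD cluster of the lung and at 215 in that of the aorta, above the other clusters of its organ, as are MMP2 and MMP23B.

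Of the 58 other listed genes, 9 reached 20 CPM in resting or cycling lung cells and 11 in the deep aorta, and 0 were 2-fold apart in either. TFPI2, an inhibitor of serine proteases and MMPs, had a cycling over resting fold of 0.617 (0.569 to 0.669) in the lung and 0.700 (0.636 to 0.770) in the deep aorta. The folds of RECK were 0.841 (0.746 to 0.949) and 0.642 (0.584 to 0.706). ADAM17 had an interval that included no difference in both, at 0.938 (0.857 to 1.03) and 1.00 (0.905 to 1.11). The ratio of TIMP to MMP UMIs was 1.23 (1.19 to 1.27) in resting and 1.33 (1.29 to 1.37) in cycling lung cells, and 1.82 (1.77 to 1.87) and 1.95 (1.88 to 2.02) in the deep aorta.

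Between the organs, TIMP2 was 2.16-fold (1.86 to 2.49) and TIMP3 2.41-fold (2.09 to 2.78) higher in endothelial-like aorta cells within the limits than in those of the lung. These were 2 of 5 genes at 20 CPM, against 6.07% higher and 9.59% either way of 6051 genes, and neither reached 2-fold when the CPM of single cells were averaged. MMP2 was 1.57-fold (1.43 to 1.73) and TIMP1 1.35-fold (1.22 to 1.48) higher, and the MMP23B interval included no difference, at 0.801 (0.626 to 1.01). With deep aorta cells, TIMP2 was 2.21-fold (2.12 to 2.31) and TIMP3 1.78-fold (1.70 to 1.87) higher, so 1 of 5 was past 2-fold, against 3.08% higher and 4.37% either way of 5906 genes. ADAMTS1 was at 18.0 CPM (16.6 to 19.4) in deep aorta and 3.57 CPM (3.07 to 4.13) in lung endothelial-like cells, 5.03-fold higher (4.25 to 5.96) but below 20 CPM in both. In collagen-high cells 0 of 5 were 2-fold apart between the deep aorta and the lung, against 4% of 5830 genes, and TIMP1 was 1.65-fold higher (1.59 to 1.70) in the aorta. With 1 library for each organ, the organ and the library cannot be told apart.

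Over the 16 clusters of both libraries within the limits, TIMP3 and MMP2 had a Pearson r of 0.86 on log2(CPM + 1), TIMP1 and TIMP2 of 0.74, and TIMP1 and TIMP3 of -0.63. Among 5028 genes at 50 CPM in a cluster, the most like TIMP1 were RBPMS, FMOD and ITGA8 (r of 0.92, 0.90 and 0.89), and the most like TIMP2 were AEBP1, ANPEP and IFI30 (0.95, 0.90 and 0.88). SMAD2 and CBX6 were nearest to TIMP3 (0.96 and 0.93), and DKK3, IL13RA1 and RPS6KA3 to MMP2 (0.97, 0.96 and 0.96). MMP14 was nearest to TBC1D20, JARID2 and TMEM251 (0.96, 0.96 and 0.95). Its values rest on few UMIs in small clusters, such as 3 in the EndMT-like and 11 in the collagen-high aorta cluster. TIMP3 had 1 and 9 UMIs in the same clusters and MMP2 had 3 and 17, so their coefficients also rest in part on few UMIs. For MMP23B the nearest were POLD4, ARMCX3 and ITM2B, at 0.73, 0.71 and 0.70. The clusters come from 2 libraries and differ in depth, and these coefficients are a description without a test.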

How the data were processed

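The authors deposited counts, the UMIs per gene and cell from Cell Ranger 3.0.2 (per the submitters' processing notes) on Sscrofa11.1, with no normalization, for 1 library of cultured lung ECs (57213236 UMIs) and 1 of cultured aorta ECs (46080859 UMIs). The files held cells beyond the limits of the methods, which were applied here, namely more than 200 genes, fewer than 5000 genes and a share of UMIs from 12 mitochondrial genes below 30%. Each library was log-normalized to 10000 and clustered in Seurat 5.3.0 (R 4.3.3) from 2000 variable genes, less all listed genes, with 20 principal components at resolution 1. Listed genes included the 7 genes and all markers.

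A marker counted as raised at 20 CPM and 2-fold over the rest of its library, and as held at 0.25 of the highest cluster. Names were given in order, to immune-like clusters with at least 3 of their markers raised, collagen-high ones with COL1A1 and COL1A2 raised, EndMT-like ones with at least 3 markers raised and fewer than 3 of 11 endothelial markers held, and endothelial-like ones with at least 6 held. Clusters with EndMT markers raised and 3 or more endothelial markers held stayed unnamed. So did clusters with a median UMI count under 0.333 of their library's and none of the name's markers among their top 10 genes by fold. Cycling endothelial-like clusters had at least 3 S phase or G2M phase genes raised. Names were rebuilt from markers, and class membership can differ from the study's.

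UMIs were summed per class in Python 3.11.15 with numpy 2.4.6, pandas 2.3.3 and scipy 1.17.1. Folds of 2 were counted at 20 CPM or more in 1 of the 2 classes, and a count of 0 was set to 3 counts. Cells were not treated as replicates, and no p-value was computed. Scrublet in scanpy 1.11.5 called 1 of 246 aorta and 5 of 5683 lung cells (0.0880%), too few to have worked in the lung, so no cell was removed as a doublet. Named were all 7 genes, listed genes 2-fold apart in the same direction in both organs or among the top 3 of their list in endothelial-like cells, and the 3 genes most like each of the 7 that reached 20 CPM, of which 1 is not reported here. The 7 genes, lists and thresholds were chosen with earlier results of these data known. Coordinates and sequences are from RefSeq on the same build, matched by symbol for all 7 genes; the counts used Ensembl models. Alternatives covered limits on cells, clustering, doublets, scaling, the CPM minimum and the definition of cycling.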

Additional observations from a re-analysis of the deposited data

Results flagged for a closer look

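ADAMTS1 differed in direction between the organs. In collagen-high against endothelial-like cells its fold was 2.42 (1.62 to 3.52) in the lung, from 33 and 180 UMIs, and 0.428 (0.328 to 0.551) in the aorta with no upper gene limit, from 67 and 632 UMIs. Both counting intervals leave out 1, on opposite sides, but with 1 library per organ the difference was not tested. Within the limits on genes the aorta had 1 UMI in collagen-high and 13 UMIs in endothelial-like cells, a fold of 0.492 (0.0116 to 3.28), too few to give a direction. All of these levels are under 20 CPM.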

How the results depend on the processing

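With 14 alternatives each, 5 genes in the lung and 4 in the aorta were 2-fold apart between collagen-high and endothelial-like cells, with a range of 4 to 6 and of 4 to 5. TIMP1, TIMP3 and MMP2 kept their call under all 14 in both organs. For EndMT-like cells the count was 3, and 5 without cells under 1% mitochondrial UMIs or with the mean of single-cell CPM. For aorta against lung endothelial-like cells it was 2, and 1 with no upper limit on genes and 0 with the mean of single-cell CPM. It was 4 with no minimum CPM, which let in MMP14 and ADAMTS1 from below 20 CPM. For cycling against resting lung cells it was 0, and 1 with G2M clusters alone. In the deep aorta it was 1. It was 2 without the 5% of cells with the highest Scrublet scores, on UMIs other than mitochondrial ones, with folds divided by the median fold, or with G2M clusters alone. It was 0 at resolution 0.8, at resolution 1.5 and without the SLPI and CFD cluster. The last setting, chosen after seeing the data as was the one without collagen-high cells carrying endothelial UMIs, turned the log2 fold of TIMP3 to 0.49 from -1.52. Aorta cells within the limits gave no cycling endothelial-like cluster, so that alternative has no value. Shares of all genes 2-fold apart are given above only for the main settings and some alternatives. Without the share of the same setting, a changed count shows how far the count moved and no more. Of 609 log2 folds of single genes under alternatives, 514 stayed within their counting interval, and 16 changed sign. TIMP3 without the SLPI and CFD cluster was the 1 of these that had been 2-fold apart, and the other 15 were of genes within 2-fold or below 20 CPM, such as MMP23B. The causes were not tested. No paired analysis was possible because each organ has 1 library. Counting error limits TIMP3 in EndMT-like cells and ADAMTS1 throughout.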

Other observations

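Immune-like lung cells, 90 cells led by LYZ and other macrophage genes, had TIMP2 at 139.5 CPM (116 to 166) against 70.2 CPM (68.0 to 72.6) in endothelial-like lung cells, and MMP2 at 274 CPM (241 to 309.5) against 211 CPM (207 to 215). TIMP1 was lower there, at 123 CPM (102 to 148) against 232 CPM (228 to 236). They had 0.862 (0.733 to 1.01) TIMP UMIs per MMP UMI. PECAM1 was at 1139 CPM (1071 to 1209.9) in the same cells, against 1597 CPM (1585 to 1608) in endothelial-like cells, and its part in these values was not tested.

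An unnamed lung cluster of 287 cells, with a median of 2975 UMIs, had MMP2 at 364 CPM (327 to 405), TIMP3 at 91.0 CPM (72.8 to 112) and TIMP1 at 105 CPM (85.1 to 128).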
